A study of Mus musculus with 8 samples.

Results

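Box H/ACA small nucleolar RNAs (snoRNAs), whose mouse genes carry names beginning with Snora, were examined in RNA-seq of mouse liver. The members were the 39 rows of the deposited gene count table with the gene type snoRNA and such a name, out of 376 snoRNA rows and 28073 rows in all. These 39 rows carry 38 names, because Snora16a has 2 overlapping rows whose counts were equal in 6 of 8 libraries. The livers came from mice of the inbred strain C57BL/6 that were 21 to 22 weeks old. High-fat diet was fed to 4 mice and a low-fat control diet to the other 4, and the labels name no further treatment or allele in either group. The series was designed to compare the liver transcriptome between the diets, with each mouse a biological replicate.

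Box H/ACA snoRNAs are short nuclear RNAs that fold into a pair of hairpins joined by a hinge, the H box (ANANNA), and end in a tail that carries the trinucleotide ACA. Each is bound by dyskerin (Dkc1), Gar1, Nhp2 and Nop10, and most guide dyskerin to convert chosen uridines of ribosomal or spliceosomal RNA to pseudouridine, while the U17 family (Snora73a and Snora73b) is needed for cleavage of the ribosomal RNA precursor. In mammals most are cut out of introns of host genes, many of which encode ribosomal proteins or non-coding snoRNA host transcripts, and the bound proteins keep the excised RNA from decay. The liver makes large amounts of secreted and metabolic proteins and so needs a steady supply of ribosomes.

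The sequences of 6 members are given: the near-identical and most abundant pair Snora73a and Snora73b, and the 4 members with the largest falls among those called. All are from the GENCODE M21 transcripts of GRCm38, 5′ to 3′, with capitals marking the ACA box of the tail and one match to the hinge ANANNA, chosen as the match that leaves the 2 arms with the lowest summed folding energy. Snora73a lies at chr4:132352775-132352979 and Snora73b at chr4:132352322-132352526, both on the minus strand inside Snhg3 and Rcc1. Snora78 lies at chr17:24719676-24719803 on the minus strand inside Snhg9, and Snora64 at chr17:24720772-24720905 on the plus strand inside Rps2. Snora21 lies at chr11:97781639-97781775 on the minus strand inside Rpl23, and Snora70 at chrX:74272484-74272620 on the plus strand inside Rpl10.
Snora73a: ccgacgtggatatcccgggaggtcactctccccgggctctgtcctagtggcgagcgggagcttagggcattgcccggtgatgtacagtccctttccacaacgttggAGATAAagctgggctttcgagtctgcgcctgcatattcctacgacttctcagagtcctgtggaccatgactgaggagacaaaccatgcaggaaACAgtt
Snora73b: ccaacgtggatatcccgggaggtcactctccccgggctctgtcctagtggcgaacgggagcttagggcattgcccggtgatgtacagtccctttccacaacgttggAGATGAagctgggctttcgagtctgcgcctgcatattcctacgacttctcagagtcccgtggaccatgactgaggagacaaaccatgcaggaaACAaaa
Snora78: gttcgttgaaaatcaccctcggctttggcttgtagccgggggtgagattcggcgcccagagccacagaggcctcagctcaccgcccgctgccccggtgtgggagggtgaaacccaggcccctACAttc
Snora64: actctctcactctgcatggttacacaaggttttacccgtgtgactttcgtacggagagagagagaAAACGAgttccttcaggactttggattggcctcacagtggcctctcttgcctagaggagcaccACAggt
Snora21: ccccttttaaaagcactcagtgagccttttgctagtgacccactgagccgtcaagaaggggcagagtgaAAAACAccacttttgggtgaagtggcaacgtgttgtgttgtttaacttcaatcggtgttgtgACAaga
Snora70: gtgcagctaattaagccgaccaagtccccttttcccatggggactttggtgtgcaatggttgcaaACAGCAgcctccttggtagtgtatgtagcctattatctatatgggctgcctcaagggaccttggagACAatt
Snora73a and Snora73b are identical at 198 of 205 aligned bases (96.6%), so their reads may have been shared or misassigned and their values are uncertain as single genes. The next closest pair, Snora2b and Snora34, are identical at 68.0% of 147 aligned columns. No hinge match is capitalised in Snora78, since ANANNA was not found in the middle 35 to 65% of its length. The arrangement of the printed members was general to the class. ACA stood exactly 3 bases before the annotated end in 32 of 39 Snora rows (82.1%), in 0 of 80 rows of the box C/D class (Snord), and in 1.5% of 32809 promoter windows of 133 bases. ACA ended 1 to 4 bases from the annotated end in 37 of 39 Snora rows (94.9%), against 3.8% of Snord rows and 6.2% of those windows. ANANNA was found in the middle 35 to 65% of 36 of 39 Snora rows (92.3%), against 33.8% of Snord rows and 44.0% of windows, so this loose motif separates the classes less sharply than the tail does. Shorter rows offer fewer positions for a match, and Snord rows had a median of 78.5 bases against 133 for Snora rows. The part of length in the Snord share was not tested. Motifs were sought on the transcribed strand only, and overlaps between matches were allowed.

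Every one of the 39 rows had counts, but the class was dominated by a few long members. Lengths ran from 121 to 205 bases with a median of 133. Snora73a held 35.8% of all Snora counts, Snora73b 24.7% and Snora74a 17.8%, together 78.3%. Per length, Snora73a stood at 759 CPM per kilobase (read counts scaled to a common library size after TMM normalization) over the 8 libraries, Snora73b at 525 and Snora74a, the U19 snoRNA, at 396. Snora81 followed at 117 CPM per kilobase, Snora23 at 107, Snora78 at 80.9 and Snora7a at 74.8. At the low end Snora36b stood at 0.200 CPM per kilobase, resting on a mean of 0.75 counts per library. Across the 39 rows, Spearman's rho between length and CPM per kilobase was 0.41, a description over genes of the same libraries. The 5 members over 150 bases (Snora73a, Snora73b, Snora74a, Snora81 and Snora23) were the 5 highest per kilobase. How well RNAs of such lengths survive library preparation and alignment was not tested, so levels per length may not be abundances in the cell.

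**Figure D1:**
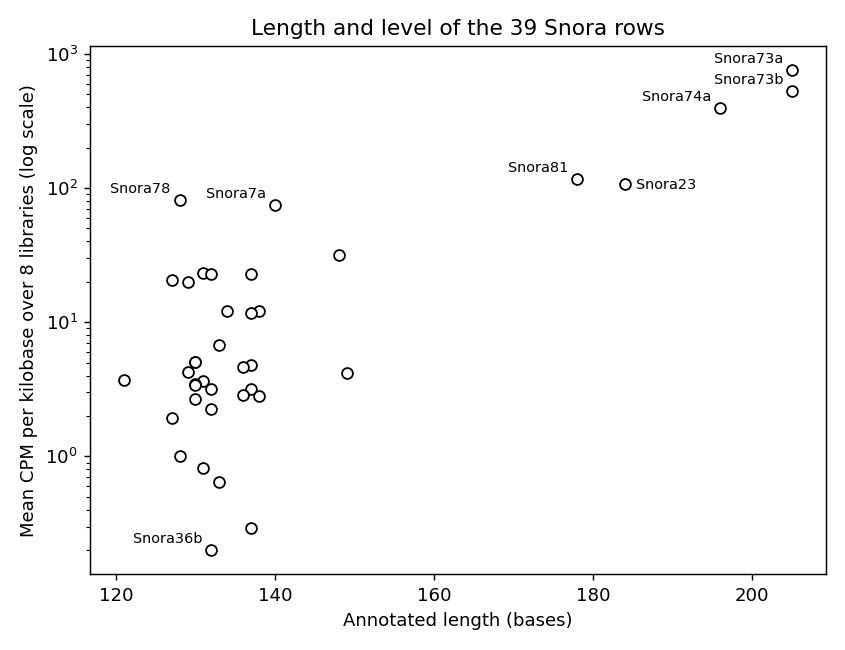
Annotated length in bases (x axis) against mean TMM-scaled CPM per kilobase over 8 libraries on a log scale (y axis), 1 circle per Snora row (39 rows). The 5 rows over 150 bases sit highest, from 107 CPM per kilobase for Snora23 to 759 for Snora73a, while the shorter rows spread from 0.200 (Snora36b) to 80.9 (Snora78).

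Total counts per library lay between 26643020 and 30013106, so that 1 count stood for 0.0338 to 0.0388 CPM. A low-count filter left 14088 genes for testing with edgeR, among them 31 Snora rows (30 names), of which 16 had a mean of at least 1 CPM and may be called well measured. Another 15 tested rows had a mean under 25 counts. The 8 rows left out were Snora47, Snora41, Snora43, Snora20, Snora15, Snora75, Snora2b and Snora36b, with mean counts of 0.75 to 10.625 per library. Without the filter, edgeR called 10 of the 39 rows.

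Some libraries stood apart in markers of other cell types. Adipoq, a fat cell hormone, had 2, 2, 3 and 10 counts in high-fat replicates 1 to 4, against 42, 0, 0 and 32 counts in control replicates 1 to 4, and control replicates 1 and 4 also had the highest summed Snora. Summed adipocyte markers, 1 of 4 tested and higher, stood at 18.6 to 74.2 CPM on the high-fat diet and 0 to 5.16 CPM on the control diet. Adipoq, which is in that sum, had a mean of 0.151 CPM on the high-fat diet and 0.700 CPM on the control diet. The higher sum therefore came from the other markers and does not follow Adipoq. Pancreatic acinar markers summed to 6.56 to 9.33 CPM on the high-fat diet and 11.8 to 40.2 CPM on the control diet (1 of 3 tested and lower, with Prss2 at 0), and the 7 hepatocyte markers, all tested with 2 lower, to 61596 to 66390 CPM on the high-fat diet and 74557 to 109543 CPM on the control diet. No marker of Kupffer cells, endothelium, stellate cells, cholangiocytes, lymphocytes or erythroid cells was called by edgeR. The Snora calls without control replicates 1 and 4 are given with the results, and the part of the other features in the snoRNA counts was not tested. Strand was kept in counting as far as could be seen: Gm17300, whose exon covers all 205 bases of Snora73b on the opposite strand, had a mean of 0.375 counts.

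Summed over the 39 rows, box H/ACA snoRNAs were lower on the high-fat diet. The summed Snora level was 399, 353, 301 and 336 CPM in high-fat replicates 1 to 4, against 641, 473, 420 and 562 CPM in control replicates 1 to 4. The groups did not overlap, with the highest high-fat library (replicate 1) below the lowest control library (replicate 3). The means were 347 ± 40.9 CPM on the high-fat diet and 524 ± 97.7 CPM on the control diet (SD, n = 4 each), a ratio of 0.663. As a share of all counts the class made up 0.0321 to 0.0408% of high-fat libraries and 0.0408 to 0.0620% of control libraries. Snora73a, Snora73b and Snora74a together had a ratio of 0.672 and the other 36 rows a ratio of 0.631, so the drop in the sum was not carried by the abundant members alone. In bulk liver RNA, fewer cells of a type and less RNA per cell cannot be told apart.

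Of the 31 tested Snora rows, 9 fell (29%) and 0 rose with edgeR (quasi-likelihood F test, p adjusted by Benjamini-Hochberg over all genes, threshold 0.05). The background was 5.86% of all tested genes lower and 3.75% higher, 9.61% in all. All 31 log2 fold changes (high fat over control) were below 0, from -1.43 to -0.34 with a median of -0.73, while the median over all tested genes was 0.0069, and 27 of the 31 were below 0 when libraries were scaled to the counts of the other snoRNA rows. Every high-fat library was below every control library for 11 of 31 rows (35.5%), against 9.97% of all tested genes, and above every control library for 0, against 7.28%. At an unadjusted p of 0.05, 18 rows were lower and none was higher. No matching share of all tested genes is given for this or later counts at that threshold. The calls came from the well measured members: 9 of 16 rows with a mean of at least 1 CPM were called and 0 of 15 below it, although the medians of these groups were -0.67 and -0.76. Among rows over 150 bases 3 of 5 were called (median -0.55), and among shorter rows 6 of 26 (median -0.78). Over the 31 rows Spearman's rho of the log2 fold change was 0.13 with length and 0.19 with mean CPM, given as descriptions. The count depended on single libraries. It was 4 without control replicate 1, 6 without control replicate 2 and 5 without control replicate 4. It was 3 without any one of high-fat replicates 2, 3 and 4, and 9 without control replicate 3 or high-fat replicate 1. With all 8 libraries, edgeR called 825 of all genes lower. That number was 432 to 539 without any one of control replicates 1 and 2 and high-fat replicates 2, 3 and 4. It was 805 without control replicate 4, 843 without control replicate 3 and 579 without high-fat replicate 1. Except without control replicate 4, the drops in the Snora count went with a large loss of calls over all genes. Without control replicates 1 and 4 together, an alternative added after seeing the data, edgeR called 0 rows (9 at an unadjusted p of 0.05) and DESeq2 called 4, with 30 of 31 rows still below 0 and a median of -0.44. Over all genes, edgeR then called 461 lower and 282 higher. DESeq2 called 772 lower and 592 higher, against 1193 and 860 with all 8 libraries.

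**Figure D2:**
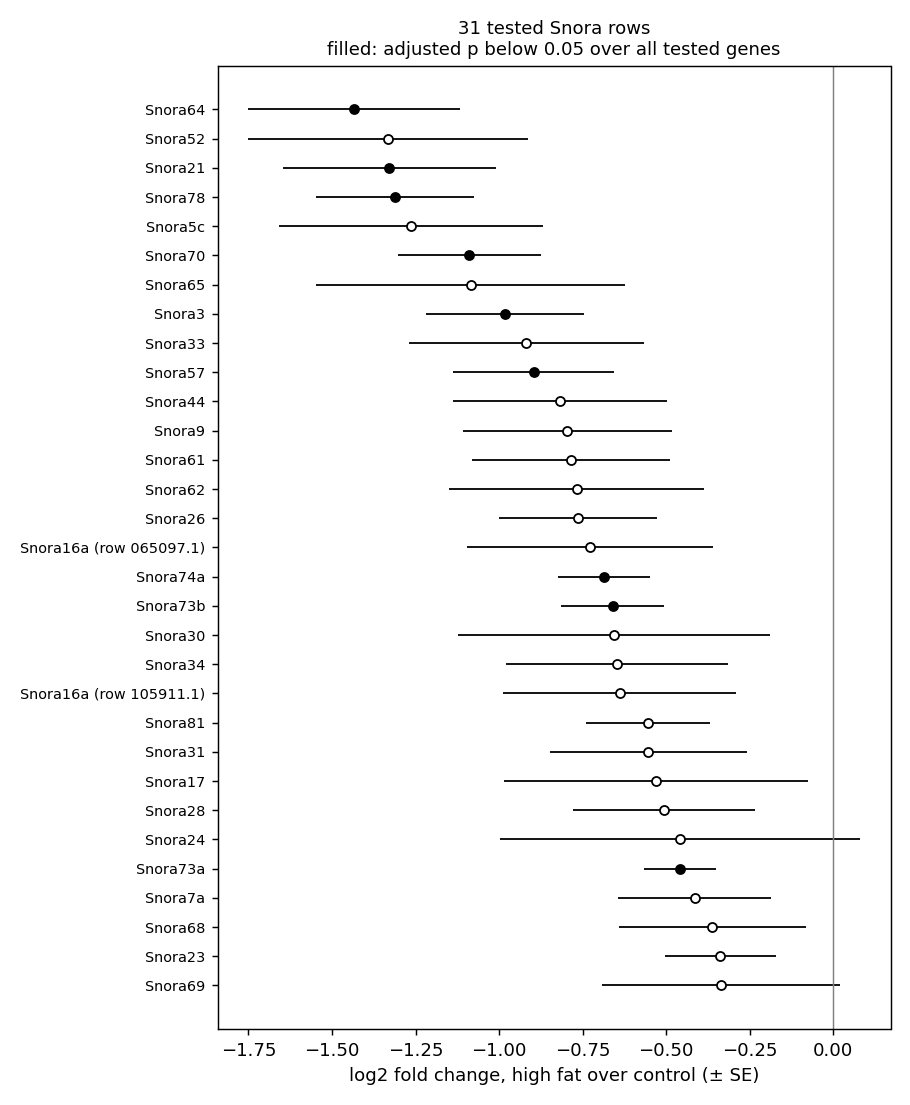
Log2 fold change of high fat over control (x axis, points, with bars of 1 SE from edgeR) for the 31 tested Snora rows, ordered by fold change, with filled points for the 9 rows past an adjusted p of 0.05. All points lie left of 0 under TMM scaling, from Snora64 at -1.43 to Snora69 at -0.34, and 27 of 31 do when libraries are scaled to the other snoRNA rows.

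The 3 most abundant members were all lower. Snora73a, the U17 snoRNA that acts in cleavage of the ribosomal RNA precursor, had 145, 134, 122 and 124 CPM in high-fat replicates 1 to 4, against 209, 172, 149 and 191 CPM in control replicates 1 to 4. The groups did not overlap, though high-fat replicate 1 came within a few CPM of control replicate 3. Its means were 131 ± 10.5 CPM on the high-fat diet and 180 ± 26.0 CPM on the control diet (SD, n = 4 each), which differ by -0.46 ± 0.107 (SE) as a log2 fold change (edgeR adjusted p = 0.0284). Snora73b, its near-copy and neighbour, had 92.5, 84.7, 72.99 and 83.6 CPM on the high-fat diet, against 172, 123, 97.7 and 135 CPM on the control diet. Control replicate 1 was the highest and the groups did not overlap. The log2 fold change of Snora73b was -0.66 ± 0.153 (edgeR adjusted p = 0.0268). Relative to Snora73a, Snora73b reached 59.9 to 67.3% in high-fat libraries and 65.7 to 82.1% in control libraries, which overlap. Neither call held in every subset of the libraries. Snora73a missed the threshold without any one of control replicates 1, 2 and 4 and high-fat replicates 2, 3 and 4 (edgeR adjusted p = 0.0537 to 0.0816), and Snora73b without any one of control replicate 2 and high-fat replicates 2, 3 and 4 (0.0529 to 0.0792).

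Snora74a, the U19 snoRNA that guides pseudouridylation of the large ribosomal RNA, had 66.7, 61.5, 49.9 and 59.6 CPM in high-fat replicates 1 to 4, against 115, 84.1, 76.5 and 107 CPM in control replicates 1 to 4. Its groups did not overlap, and control replicates 1 and 4 stood above the other controls. The means were 59.4 ± 7.02 CPM on the high-fat diet and 95.7 ± 18.3 CPM on the control diet (SD, n = 4 each), and the log2 fold change was -0.69 ± 0.139 (edgeR adjusted p = 0.0159). This call was kept whichever single library was left out, as were those of Snora78 and Snora70, and these 3 were the members of which that holds. With edgeR its fall was smaller and not called without control replicates 1 and 4 together (-0.44, edgeR adjusted p = 0.0701, with DESeq2 0.0171) and scaled to the counts of the other snoRNA rows (-0.24, edgeR adjusted p = 0.153).

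The other 6 called members are 128 to 148 bases long, and their log2 fold changes ran from -1.43 to -0.90. Snora78, which lies in the non-coding host gene Snhg9, had 8.62, 5.85, 4.43 and 4.87 CPM on the high-fat diet, against 19.4, 15.4, 10.7 and 13.6 CPM on the control diet. All high-fat libraries were below all control libraries, with replicate 1 highest in both groups. The means were 5.94 ± 1.88 CPM on the high-fat diet and 14.8 ± 3.65 CPM on the control diet (SD, n = 4 each), and the log2 fold change was -1.31 ± 0.235. Its edgeR adjusted p = 0.0103 was the smallest of the class. Snora78 made up 1.45 to 2.16% of Snora counts in high-fat libraries and 2.41 to 3.25% in control libraries, so it was lower relative to its own class as well.

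Snora64, the U64 snoRNA within Rps2, begins about a kilobase from Snora78 on the opposite strand. It had 1.31, 0.992, 0.711 and 0.508 CPM on the high-fat diet, against 3.45, 1.78, 2.16 and 2.19 CPM on the control diet. Its log2 fold change of -1.43 ± 0.316 was the largest fall of the 31 rows (edgeR adjusted p = 0.0220), on a mean of 45.125 counts per library, and the groups did not overlap. Snora70, the U70 snoRNA of Rpl10, had 2.53, 2.02, 1.59 and 1.89 CPM on the high-fat diet, against 5.82, 3.29, 4.01 and 3.98 CPM on the control diet. Snora64 missed the threshold without any one of control replicate 1 and high-fat replicates 2, 3 and 4 (edgeR adjusted p = 0.0510 to 0.0668). The Snora70 groups were apart as well, and the log2 fold change was -1.09 ± 0.214 (edgeR adjusted p = 0.0144).

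Snora21, within Rpl23, had 1.35, 0.957, 0.677 and 0.690 CPM in high-fat replicates 1 to 4, against 2.83, 1.998, 1.37 and 3.07 CPM in control replicates 1 to 4. The gap was small, since high-fat replicate 1 almost met control replicate 3. The log2 fold change was -1.33 ± 0.319 (edgeR adjusted p = 0.0311). Snora3, within Rpl27a, had 2.32, 2.27, 1.996 and 1.49 CPM on the high-fat diet, against 5.59, 3.15, 3.02 and 4.24 CPM on the control diet, and its log2 fold change was -0.98 ± 0.236 (edgeR adjusted p = 0.0310) with no overlap. Snora57 had 4.26, 3.47, 2.40 and 2.91 CPM on the high-fat diet, against 8.11, 6.44, 3.94 and 5.81 CPM on the control diet. It was the one called member whose groups overlapped, because control replicate 3 lay below high-fat replicate 1. Its log2 fold change of -0.90 ± 0.241 had an edgeR adjusted p = 0.0471, close to the threshold, and it was called in 7 of 19 alternatives. Snora21 and Snora57 missed the threshold without any one of control replicates 1, 2 and 4 and high-fat replicates 2, 3 and 4 (edgeR adjusted p = 0.0561 to 0.0866 for Snora21 and 0.0689 to 0.119 for Snora57). Snora3 missed it without any one of control replicates 1 and 4 and the 4 high-fat libraries (0.0521 to 0.0800).

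**Figure D3:**
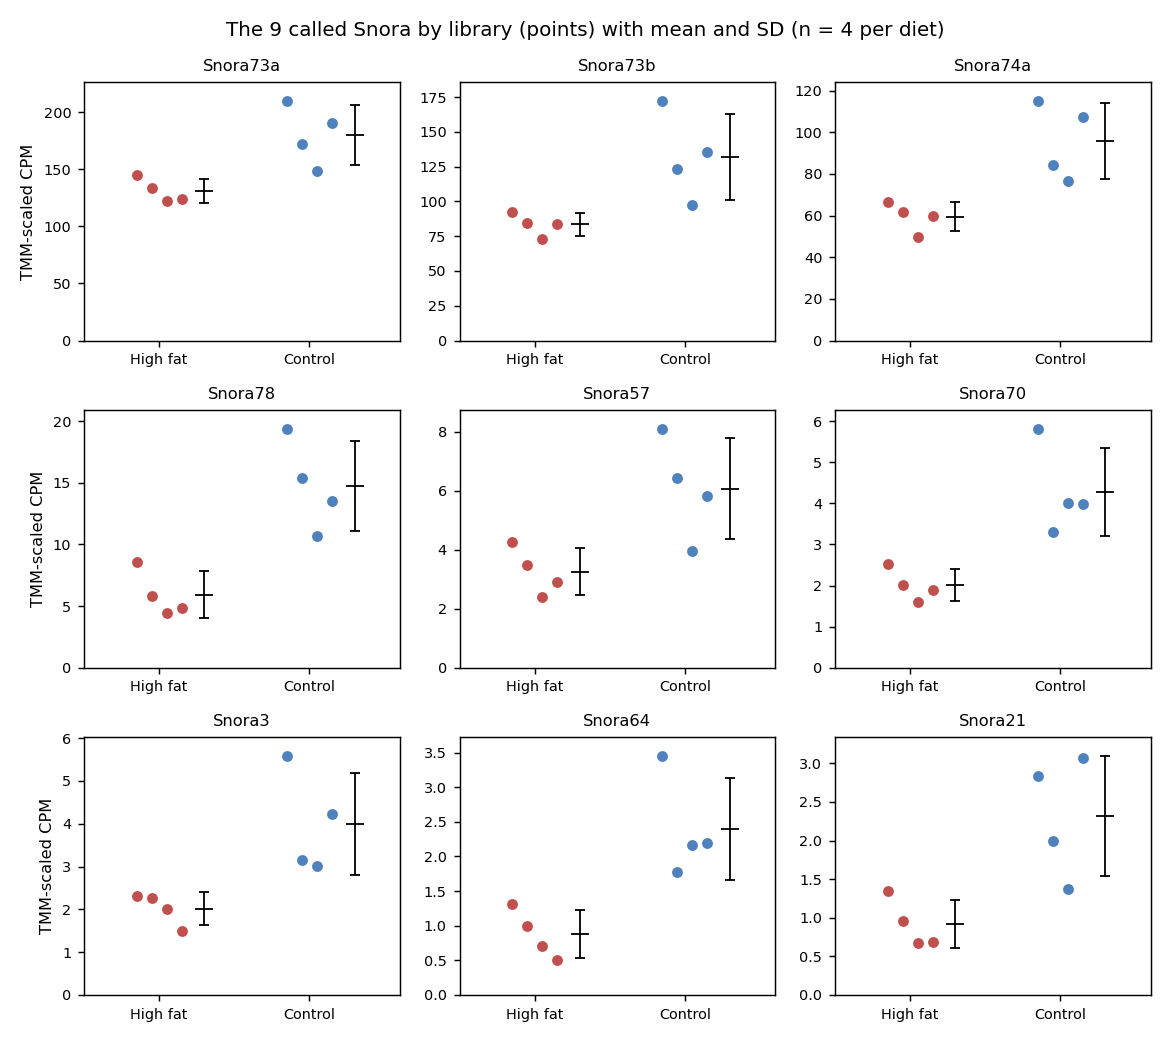
TMM-scaled CPM (y axis, from 0) of the 9 called Snora in each library, with high-fat points left of control points and the mean with its SD beside them (n = 4 per diet). High-fat points lie below all control points in 8 panels, and in the Snora57 panel the lowest control point (3.94 CPM) lies below the highest high-fat point (4.26 CPM).

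Several abundant members did not pass the main test. Snora81, within Eif4a2, had 21.8, 16.0, 11.9 and 17.7 CPM on the high-fat diet, against 29.5, 20.2, 21.4 and 27.8 CPM on the control diet, and the log2 fold change was -0.55 ± 0.185 (edgeR adjusted p = 0.0945). Snora81 was called in 3 alternatives, with DESeq2 (adjusted p = 0.0385), without the low-count filter (edgeR adjusted p = 0.0476) and without high-fat replicate 1 (edgeR adjusted p = 0.0498). Snora23, within Ipo7, had 20.3, 17.3, 13.6 and 18.5 CPM on the high-fat diet, against 26.0, 16.1, 20.8 and 25.4 CPM on the control diet, with -0.34 ± 0.166 (edgeR adjusted p = 0.242). In both, control replicate 2 lay below high-fat replicate 1, as did control replicate 3 for Snora81. Snora7a, within Rpl32, had 12.4, 7.94, 7.92 and 7.66 CPM on the high-fat diet, against 14.7, 8.44, 9.53 and 15.2 CPM on the control diet, with -0.41 ± 0.229 (edgeR adjusted p = 0.301). Snora7a split within the groups: high-fat replicate 1 and control replicates 1 and 4 were high and the other 5 libraries were close together. Without control replicates 1 and 4 its log2 fold change was -0.0044, and scaled to the other snoRNA rows those of Snora23 (0.10), Snora7a (0.038) and Snora68 (0.082) were above 0.

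The remaining members of the fixed selection had means of 2.375 to 84.875 counts per library. Snora68, the U68 snoRNA, averaged 2.67 ± 0.670 CPM on the high-fat diet and 3.44 ± 1.22 CPM on the control diet (SD, n = 4 each), and its log2 fold change was -0.36 (edgeR adjusted p = 0.468). Snora44, 1 of 3 members in Snhg12, averaged 1.87 ± 0.781 CPM on the high-fat diet and 3.30 ± 0.861 CPM on the control diet, with -0.82 ± 0.319 (edgeR adjusted p = 0.146). Neither was called, though Snora44 is among the 18 rows lower at an unadjusted p of 0.05. Snora62, the E2 snoRNA of Rpsa, had -0.77 (edgeR adjusted p = 0.250), Snora65, the U65 snoRNA of Rpl12, had -1.08 (edgeR adjusted p = 0.181), and Snora24 of Snhg8 had -0.46 ± 0.538 (edgeR adjusted p = 0.651). Snora26, Snora5c and Snora61 had no overlap between groups and were not called, with edgeR adjusted p of 0.0751, 0.0782 and 0.133 and means of 10.75 to 18.25 counts per library. Snora75, the U23 snoRNA of the nucleolin gene, was untested at a mean of 2.375 counts.

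Several other classes of short RNA were lower in sum on the high-fat diet as well. Summed Snord rows, the box C/D snoRNAs that guide ribose methylation, stood at 144 ± 24.8 CPM on the high-fat diet and 229 ± 36.7 CPM on the control diet (SD, n = 4 each), a ratio of 0.629. Of 13 tested Snord rows 3 fell (23.1%, against 5.86% of all tested genes) and 12 were below 0, with a median log2 fold change of -0.68. These values lie close to those of the Snora rows, and the difference between the classes was not tested. Of 41 other snoRNA rows tested that end in an ACA tail, most of which carry only model identifiers, 10 fell (24.4%) and 40 were below 0 (median -0.58). Of 14 without that tail 3 fell (21.4%) and 12 were below 0 (median -0.56). Among all 14088 tested genes, 6892 were below 0. Snora rows made up 27.8 to 28.8% of all snoRNA counts in high-fat libraries and 28.6 to 31.6% in control libraries, ranges that overlap at their ends.

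Relative to the other snoRNA rows, in an alternative added after seeing the data that scales each library to their counts, 4 Snora remained called: Snora78 (-0.89, edgeR adjusted p = 0.00752), Snora64 (-0.997, 0.0256), Snora21 (-0.89, 0.0350) and Snora70 (-0.65, 0.0429). Snora73a stood at -0.017 on that scale (edgeR adjusted p = 0.922), where the median of all genes was 0.43. Over all 14088 tested genes, 179 were lower and 4681 higher on it. Rows with an ACA tail were the largest part of that reference, at 522 CPM on the high-fat diet and 683 CPM on the control diet. Snord rows stood at 144 and 229 CPM, and the other rows without that tail at 213 and 282 CPM. The reference may therefore hold many box H/ACA snoRNAs. Summed microRNA rows had a ratio of 0.695 (106 ± 7.63 CPM on the high-fat diet, 152 ± 23.4 CPM on the control diet), and the 11 rows typed as small Cajal body RNAs, relatives that guide modification of spliceosomal RNAs, a ratio of 0.677. Of 6 other structured RNAs tested, Rn7sk, Rn7s1, Rn7s2, Rny1, Rny3 and Vaultrc5, 0 were called by edgeR. Rn7sk, the RNA that holds the elongation factor P-TEFb inactive, stood at 7752 ± 268 CPM on the high-fat diet and 8217 ± 724 CPM on the control diet, and the log2 fold change was -0.084 (edgeR adjusted p = 0.679). Scarna10, which the table types as a snoRNA, stood at 65.6 ± 7.58 CPM on the high-fat diet and 60.0 ± 1.96 CPM on the control diet, with 0.13 (edgeR adjusted p = 0.369). Terc, the telomerase RNA, which ends in an H/ACA domain and binds the same proteins, had 2.56, 3.51, 4.23 and 3.09 CPM on the high-fat diet, against 6.21, 5.03, 3.81 and 6.91 CPM on the control diet. Its groups overlapped at control replicate 3, and its log2 fold change of -0.71 ± 0.215 did not pass (edgeR adjusted p = 0.0705).

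**Figure D4:**
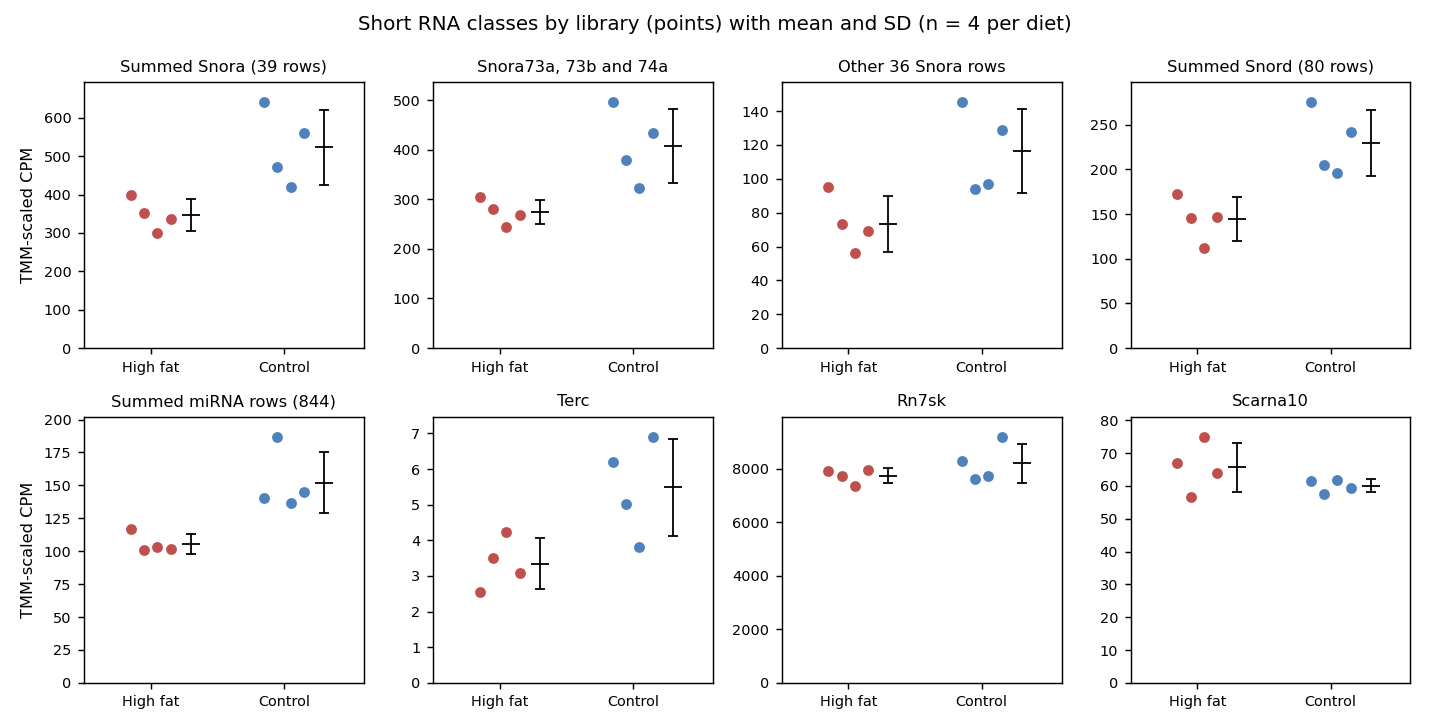
TMM-scaled CPM (y axis, from 0) per library for summed Snora rows, their 3 most abundant members, the other 36 rows, summed Snord and microRNA rows, Terc, Rn7sk and Scarna10, with high-fat points left of control points and the mean with its SD (n = 4 per diet). The diets are apart in the summed Snora (301 to 399 CPM on high fat, 420 to 641 CPM on control), Snord and microRNA panels, just overlap for the other 36 rows (up to 95.3 CPM on high fat, from 94.1 CPM on control) and overlap for Terc, Rn7sk and Scarna10.

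None of the 4 protein genes of the H/ACA particle passed the test. Dkc1, the pseudouridine synthase dyskerin, stood at 18.2 ± 0.685 CPM on the high-fat diet and 17.6 ± 1.48 CPM on the control diet (SD, n = 4 each), and the log2 fold change was 0.046 ± 0.076 (edgeR adjusted p = 0.749). Nhp2 had 17.0 ± 1.10 CPM on the high-fat diet and 16.5 ± 0.777 CPM on the control diet (log2 fold change 0.050, edgeR adjusted p = 0.713), and Gar1 had 1.69 ± 0.206 CPM on the high-fat diet and 1.85 ± 0.143 CPM on the control diet (-0.13, edgeR adjusted p = 0.675). Nop10, the smallest of the 4 proteins, had 38.8 ± 3.12 CPM on the high-fat diet and 45.8 ± 3.33 CPM on the control diet, with -0.24 ± 0.076 (edgeR adjusted p = 0.0805). With the 9 assembly and trafficking factors, among them Naf1, Shq1 and Nolc1, 0 of 13 genes were called by edgeR, DESeq2 or limma-voom, and 2 were lower at an unadjusted p of 0.05 by edgeR. None of 6 box C/D protein genes, 12 stand-alone pseudouridine synthase genes, 12 genes of snoRNA 3′-end processing and decay or 36 genes of RNA polymerase I and ribosomal RNA processing was called by edgeR, and the median log2 fold change of the last list was -0.04. Protein amounts were not measured.

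Host genes, taken as genes whose annotated coordinates enclose a member on the same strand, were compared with the members they contain. Whether a member and its host gene come from the same primary transcript was not tested. Of 29 tested genes that contain a tested member on the same strand, 11 fell and 0 rose by edgeR (37.9%), against a background of 5.86%. Ribosomal protein genes made up most of these: 9 of 11 tested ribosomal protein hosts fell, and all 11 lay between -0.52 and -0.18, while 2 of the 18 other hosts fell, both non-coding (Snhg3 and Snhg4). The count of Snhg3 was 82.9 to 89.5% of that of Snora73a, and that of Snhg4 101 to 102% of that of Snora74a. These 2 hosts may therefore hold reads of their members, and both are among the 11 that fell. Rpl27a, host of Snora3, had 157, 146, 136 and 165 CPM on the high-fat diet, against 228, 226, 194 and 220 CPM on the control diet. The diets were well apart, and the log2 fold change was -0.52 ± 0.082 (edgeR adjusted p = 0.00626), against -0.98 for Snora3. Rpl23, host of Snora21, had 115, 115, 114 and 116 CPM on the high-fat diet, against 139, 142, 141 and 135 CPM on the control diet. This tight separation gave -0.28 ± 0.050 (edgeR adjusted p = 0.0104), against -1.33 for Snora21, and no annotated exon of Rpl23 covers that member.

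Other ribosomal protein hosts gave like values. Rpl39 (-0.36, edgeR adjusted p = 0.00574), Rplp2 (-0.38, 0.00857), Rpl12 (-0.37, 0.00945), Rpl32 (-0.33, 0.0105), Rpl10 (-0.29, 0.0155), Rpsa (-0.34, 0.0204) and Rps2 (-0.27, 0.0319) fell, and Rps12 did not pass (-0.18, edgeR adjusted p = 0.0700). Some of these calls also rested on single libraries: Rps2 was lost without any one library other than control replicate 3 (edgeR adjusted p = 0.0508 to 0.0963), Rpsa was lost without any one of control replicate 2 and high-fat replicates 2 and 3 (0.0576 to 0.0663), and Rpl10 without high-fat replicate 2 (0.0525). Outside the ribosomal proteins, Ipo7, an importin and host of Snora23, had a value of 0.011 (edgeR adjusted p = 0.934), and Eif4a2, a translation initiation factor and host of Snora81, had -0.10 (edgeR adjusted p = 0.446). Rcc1, which contains Snora73a and Snora73b, had -0.12 (edgeR adjusted p = 0.659). Snhg12 (-0.41, edgeR adjusted p = 0.0907) and Snhg8 (-0.17, 0.182) did not pass, nor did Snhg9 (-0.49, 0.526), which had a mean of 10.625 counts against 284.75 for its member Snora78.

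In 31 of 34 pairs the member had the lower log2 fold change, by a median of 0.45 below its host. The difference of each pair was not tested. The pairs are not independent. Snora26, Snora30, Snora73a, Snora73b and Snora74a each enter with more than 1 host row, and Snhg12, Snhg3 and Rcc1 with more than 1 member row. Most pairs can share reads. In 19 pairs an exon of the host covers bases of the member, and in the 15 without one 13 members were lower than their hosts, with a median host log2 fold change of -0.12. Counted once each, the 12 hosts with no exon over any member had a median of -0.20. Snhg4 has no annotated exon over Snora74a in GENCODE M21, yet its count was 101 to 102% of that of Snora74a in every library, so its fall (-0.69, edgeR adjusted p = 0.0151) cannot be taken as a second measurement. Snhg3, whose exon covers 159 bases of Snora73a, stood at 82.9 to 89.5% of the Snora73a count, and its log2 fold change was -0.41 (edgeR adjusted p = 0.0312). Whether reads of Snora73a were counted in Snhg3 was not tested. Over 17 small nucleolar RNA host genes of the list, 15 were tested. Of these 5 fell, against 5.86% of all tested genes: Snhg1 (-0.75, edgeR adjusted p = 0.0111), Snhg17 (-0.56, 0.0151), Snhg20 (-0.53, 0.0247), Snhg4 and Snhg3. Snhg18, named after its value was seen, was the single one that rose (1.09 ± 0.266, edgeR adjusted p = 0.0333). Snhg3 was lost without any one of control replicates 1, 2 and 4 and high-fat replicates 2, 3 and 4 (edgeR adjusted p = 0.0585 to 0.0862), and Snhg20 without any one of control replicate 1 and high-fat replicates 3 and 4 (0.0554 to 0.0676).

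**Figure D5:**
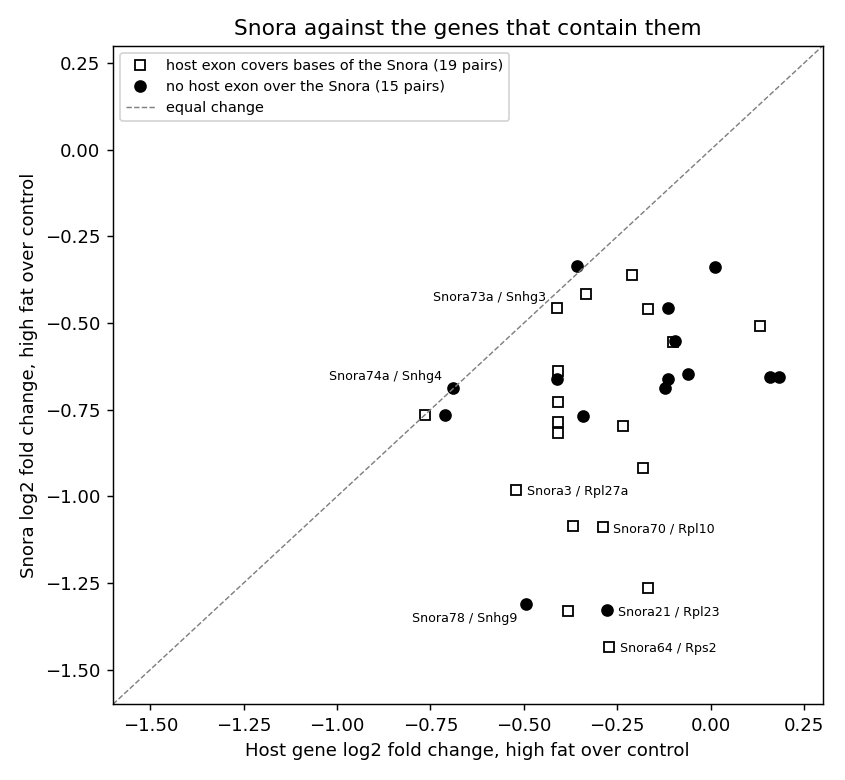
Log2 fold change of the host gene (x axis) against that of the Snora it contains (y axis), high fat over control, for 34 pairs, with open squares for 19 pairs where a host exon covers bases of the Snora, filled circles for the other 15 and a dashed line of equal change. In 31 pairs the Snora lies below the line, and the Snora74a and Snhg4 pair, whose counts are nearly equal, lies on it. Some members and hosts recur among the pairs.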

How the data were processed

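Total liver RNA (mirVana kit) was made into TruSeq Stranded Total RNA libraries, per the labels' protocols. The authors deposited whole-number counts per gene. bcl2fastq 2.20.0.422, Trimmomatic 0.32, TopHat2 2.1.1 and mm10 are named in the submitters' processing notes, while the annotation release, counter and strand setting were not given in the sources used here. Count columns were matched to samples by their titles. Counts were tested in R 4.3.3 with edgeR 4.0.16 (filterByExpr, TMM, glmQLFit and glmQLFTest, no covariates, 8 libraries), with Benjamini-Hochberg adjustment over 14088 genes and calls at 0.05. P-values measure the spread between these libraries. The SE is the absolute log2 fold change over the square root of F. CPM uses TMM-scaled library sizes, whose factors were 1.02 to 1.07 on the high-fat diet and 0.955 to 0.976 on the control diet. Alternatives used DESeq2 1.42.0, limma-voom 3.58.1, other factors, filters and thresholds, and left libraries out. Replicates differed by more than counting noise (mean chi-square per gene 18.2 to 119.6). Coordinates of all 39 rows were the same in GENCODE M21, which gave sequences and exons, and arms were folded with ViennaRNA 2.7.2. Promoter windows from RefSeq took the place of flanking sequence, as no genome was used. Named genes were called members, the 8 most abundant, the 4 largest and 4 smallest changes at 1 CPM or more, a fixed selection, their hosts, up to 6 called hosts, core proteins and up to 4 called genes per list; Snora26, Snora5c and Snora61 were added after their values were seen. Members and lists were chosen with earlier results of these data known.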

Additional observations from a re-analysis of the deposited data

Results flagged for a closer look

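In 7 of 114 groups of 4 libraries checked, 1 library lay so far from the other 3 that Dixon's test at its 95% critical value marked it, and chance alone marks about 1 group in 20. Snora7a was 12.4 CPM in high-fat replicate 1, against 7.66 to 7.94 CPM in the other high-fat libraries. Summed microRNA rows were 117 CPM in high-fat replicate 1 (101 to 103 CPM in the other 3) and 187 CPM in control replicate 2 (137 to 145 CPM in the other 3). Rn7s2, a signal recognition particle RNA, was 959 CPM in control replicate 1 and 5.14 to 12.6 CPM in the other controls. Adipoq was 0.363 CPM in high-fat replicate 4, against 0.0692 to 0.102 CPM in the other high-fat libraries. Rpl10, the host of Snora70, was 149 CPM in high-fat replicate 4 (138 to 140 CPM in the others), and Gar1 was 1.38 CPM in high-fat replicate 1 (1.77 to 1.83 CPM in the others).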

How the results depend on the processing

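The 9 called Snora members became 8 to 10 with other scalings (RLE, upper quartile, library totals), DESeq2, limma-voom, other filters or without the 10 most abundant genes, and 13 at an adjusted p of 0.10. None was called at an adjusted p of 0.01 (edgeR, 18 at an unadjusted p of 0.05). Leaving out 1 library gave 3 to 9 calls, and without control replicates 1 and 4 together 0 with edgeR and 4 with DESeq2. Over all genes, leaving out 1 library gave 432 to 843 lower and 293 to 636 higher, against 825 and 529 in the main fit. Scaled to other snoRNA counts, 4 were called, where 179 of all genes were lower and 4681 higher. The 13 proteins of the particle and its assembly gave 0 calls throughout and 1 at an adjusted p of 0.10. Host genes called were 11, 4 at an adjusted p of 0.01, 7 to 13 with 1 library left out (7 without high-fat replicate 2), and 4 without control replicates 1 and 4 together (9 with DESeq2). The cause of these changes was not tested. No change of direction past the threshold occurred under any alternative run. Library totals moved the median of all genes to 0.10, with 31 of 31 Snora still below 0. No paired analysis was possible because replicate numbers follow sample order and pair nothing. Depth limits the 23 rows under 1 CPM most.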

Other observations

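Rows typed as microRNA lie on the same strand over 4 members. Snora34 contains mmu-miR-1291 and covers 92 bases of the Mir1291 hairpin, whose row had a mean of 1.5 counts per library against 46.375 for Snora34. Snora36b covers 64 bases of the Mir664 hairpin, whose row had 0 counts. The rows AC154540.1 and AC121821.1 lie over Snora81 and Snora74a, with means of 105.875 and 72.875 counts against 576.5 and 2147.25. Whether any read was counted in both rows is not known from the sources used here.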
